A study of Mus musculus with 8 samples.

Results

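The voltage-gated sodium channel α-subunit genes are a family of pore-forming channel genes, of which 8 were described here across all clusters of mouse dorsal root ganglion cells. They are Scn1a, Scn2a, Scn3a, Scn7a, Scn8a, Scn9a, Scn10a and Scn11a, chosen by name, and all 8 occur among the 9229 genes of the authors' deposited table of cluster markers. Of the 160 pairs of a member and a cluster, 87 are listed there. The ganglia came from C57BL/6 mice aged 21 to 30 days, with the ganglia of 4 mice pooled per sample. Living dissociated cells were exposed to an antibody against the proteasome subunit β5 over 30 min, were stained over another 40 min with a dye-coupled secondary antibody, and were sorted as positive or negative for the neuronal membrane proteasome (NMP), a proteasome exposed at the neuronal surface. Transcripts were then sequenced from their 3′ ends, cell by cell, after capture in droplets. The labels give 4 NMP-positive and 4 NMP-negative samples. These are the 4 lanes on which each population's only library was sequenced, so there was no replicate. The table holds cells of both populations together and names no sample, so no sodium channel value could be tied to NMP-positive or NMP-negative cells.

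A sodium channel α subunit is a long membrane protein that opens when the membrane depolarises and carries the upstroke of the action potential. In sensory neurons the family is commonly divided by the puffer fish toxin tetrodotoxin. Scn1a (Nav1.1), Scn2a (Nav1.2), Scn3a (Nav1.3), Scn8a (Nav1.6) and Scn9a (Nav1.7) code for sensitive channels, and Scn10a (Nav1.8) and Scn11a (Nav1.9) code for resistant channels known from pain-sensing neurons. Scn7a codes for Nax, a relative that is known as a sodium sensor and not as a classical voltage-gated channel. In the order of RefSeq genes, Scn3a lies next to Scn2a, and Scn1a, Scn9a and Scn7a lie next to each other with no other protein-coding gene between them. Scn10a likewise lies next to Scn11a, and Scn8a stands alone.

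The sequence upstream of the start is shown for Scn11a, which was low in some neuron clusters, and for Scn9a, which was found across the neuron clusters listed for it. Each is the stretch of 250 bases before the annotated transcript start, 5′ to 3′ on the gene's strand, from RefSeq's GRCm38.p6 assembly, in which 7 of the 8 genes were matched. The sources used here do not give the authors' own build. The Scn11a window is chr9:119825457-119825706 on the minus strand, and the Scn9a window is chr2:66634963-66635212 on the minus strand. Capitals mark CANNTG, the E-box motif, searched on both strands.

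Scn11a: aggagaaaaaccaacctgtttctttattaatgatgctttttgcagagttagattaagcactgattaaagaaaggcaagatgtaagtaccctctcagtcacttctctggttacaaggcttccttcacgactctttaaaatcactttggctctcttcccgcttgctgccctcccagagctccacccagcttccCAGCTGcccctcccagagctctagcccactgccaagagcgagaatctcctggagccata

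Scn9a: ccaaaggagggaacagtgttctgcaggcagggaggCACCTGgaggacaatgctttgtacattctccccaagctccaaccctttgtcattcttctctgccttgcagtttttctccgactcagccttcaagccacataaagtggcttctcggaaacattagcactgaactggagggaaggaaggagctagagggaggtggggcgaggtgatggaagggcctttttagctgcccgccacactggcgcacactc

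Each window holds 1 CANNTG, beginning 59 bases before the start in Scn11a and 215 bases before it in Scn9a, and 66.2% of all 32851 promoter windows of this length hold at least 1. TATAAA (in 12.4% of all windows), CCAAT (33.8%), GGGCGG (32.7%) and TGTGGT (14.0%) were searched on both strands in the same way, and neither window holds their letters.

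Values were read on 3 scales. The authors' deposited table gives the share of cells in which a transcript was detected, in the cluster and in all other cells, and the log2 fold change of the cluster over all other cells. Since the other cells differ from cluster to cluster, the fold changes were also set on the mean over all cells, with the share of all cells held by each cluster solved from the table. This value is called the level, and it is a log2 ratio with the constant that the authors' fold changes carry. The calls of higher and lower need a log2 fold change of 0.5 or more in size. No error over libraries exists for any value, so the order of clusters with close values was not tested.

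Cluster names are the authors'. Of all cells, 40.8% were in the 10 clusters with neuron names, 3 clusters named Low.UMI, for few transcript molecules per cell, held 28.6%, and 7 clusters labelled Unknown held 30.7%. The labels call the cells somatosensory neurons. The 4 pan-neuronal genes Rbfox3, Snap25, Tubb3 and Uchl1 were each lower in all 7 Unknown clusters, where Rbfox3, which codes for the neuronal nuclear protein NeuN, was in 1.8 to 6.3% of cells in the authors' deposited table. The other 3 were detected more widely in the Unknown clusters, Snap25 in 8.5 to 15.3%, Tubb3 in 24 to 36.7% and Uchl1 in 44.5 to 71.8% of cells in the authors' deposited table. Markers of other cells were found there, among them the endothelial gene Flt1 in 99% of Unknown.1 cells in the authors' deposited table. Such markers were also found under neuron names. The fibroblast gene Dcn had a log2 fold change of 1.91 in CGRP-z and was in 96.3% of its cells in the authors' deposited table. The mural cell gene Rgs5 had 1.44 in LTMR, in 99.7% of cells, and 1.35 in Peptidergic.488p, in 61% of cells, in the authors' deposited table. Apoe, a gene of satellite glia, had log2 fold changes below 0 in the 7 neuron clusters listed for it, but was in 71.4 to 89.3% of CGRP-a, CGRP-e, CGRP-n, LTMR and Non-peptidergic cells in the authors' deposited table. Col1a1 and Col3a1 of the fibroblast list and Acta2 and Tagln of the mural list were not listed for any neuron name. The part of such transcripts in the sodium channel values was not tested. Peptidergic.488p had Snap25 in only 51.1% of cells in the authors' deposited table, but Tubb3 in 99.1% and Uchl1 in 100%. Rbfox3 was not listed for it. Its sodium channel shares below 100% stand beside these values, and the part of detection in them was not tested. The shares of sodium channel transcripts in the Unknown clusters are therefore printed as the background beside those of the neurons. The peptide genes Calca and Tac1 were both higher in CGRP-a, CGRP-e and CGRP-n. In CGRP-z, Calca had a log2 fold change of -0.51 in the authors' deposited table, and Tac1 was not listed. In Peptidergic.488p, Calca was at 0.90 and Tac1 at -4.01 in the authors' deposited table. The itch neuron gene Mrgpra3 was in 71.4% of Peptidergic.488p cells in the authors' deposited table. The clusters named with 488p carry a suffix whose meaning the sources used here do not state.

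Scn10a, the gene of the tetrodotoxin-resistant channel Nav1.8, differed widely between the neuron clusters listed for it. In the authors' deposited table it was detected in 100% of Non-peptidergic, 100% of CGRP-e, 99.8% of CGRP-a and 95.4% of SST cells, and in 68.4% of Peptidergic.488p cells. It was detected in 34.6% of CGRP-z, 20.1% of Cold.sen and 17.3% of Heat.sen cells in the same deposited table of the authors. The 7 Unknown clusters had Scn10a in 2.7 to 6.3% of their cells in the authors' deposited table. Pairs close to the mean of all cells are left out of the table, and Low.UMI.Nonpep, with 40.6% of cells, lay between CGRP-z and Peptidergic.488p in the authors' deposited table.

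The level of Scn10a was 1.12 in SST, 1.09 in Non-peptidergic, 0.80 in CGRP-e, 0.71 in Peptidergic.488p and 0.56 in CGRP-a. In CGRP-z it was -1.44, in Heat.sen -1.69 and in Cold.sen -1.73. The Unknown clusters ranged from -1.72 to -1.57, so the Scn10a level in Heat.sen lay inside the range of the Unknown clusters and that in Cold.sen just below it. A cell of these clusters could still show a Scn10a transcript more often than a cell of the Unknown clusters, and the peptide gene Calca, with log2 fold changes of -3.42 in Cold.sen and -3.98 in Heat.sen, was likewise in 93.6% and 93.9% of their cells in the authors' deposited table, against 34.2 to 61% in the Unknown clusters. The part of such low-level detection in the shares of Scn10a was not tested.

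On the scale of plain means, which needs the added constant, each Scn10a value is known as a range. The mean of Scn10a in SST was 2.18 to 2.69 times that of all cells, in Non-peptidergic 2.12 to 2.61 times and in CGRP-e 1.74 to 2.06 times. In Cold.sen it was between 0 and 0.301 times, and in Heat.sen between 0.0125 and 0.310 times the mean of all cells. Scn10a was not listed for CGRP-n, LTMR and Low.UMI.LTMR. Those 3 clusters together held 10.6% of all cells, and 77.1% of their cells had Scn10a (76.7 to 77.8% given the rounding), at a joint level of 0.05, close to the mean of all cells.

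Scn11a, the gene of Nav1.9, a channel that opens near the resting potential, shared the low end of this pattern. It was detected in 18.9% of Cold.sen and 10.2% of Heat.sen cells in the authors' deposited table, against 2.1 to 6.4% in the 7 Unknown clusters. Its levels there were -1.65 in Cold.sen and -1.62 in Heat.sen, against -1.64 to -1.53 in the Unknown clusters. Again Heat.sen lay inside the range of the Unknown clusters and Cold.sen just below it. The mean of Scn11a was at most 0.318 times that of all cells in Cold.sen and at most 0.324 times in Heat.sen.

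At its high end among the named neuron clusters, Scn11a was found in 100% of Non-peptidergic, 99.8% of CGRP-a, 95.2% of SST and 76.6% of Peptidergic.488p cells in the authors' deposited table. The levels were 1.05 in Non-peptidergic, 0.93 in Peptidergic.488p, 0.56 in SST and 0.49 in CGRP-a. Of all listed clusters, Low.UMI.Nonpep had the highest Scn11a level, 1.32. LTMR, CGRP-e, CGRP-n and CGRP-z stood between the extremes, with Scn11a in 100%, 99.7%, 97.7% and 87.9% of their cells in the authors' deposited table. Their levels were -0.33, -0.29, -0.37 and -0.65. In these 4 clusters Scn11a was detected in a larger share of cells than elsewhere although its log2 fold change was below 0.

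Scn10a and Scn11a parted in CGRP-e and in CGRP-z. In CGRP-e the Scn10a level was 0.80 and the Scn11a level -0.29. In CGRP-z, Scn10a at -1.44 was near the range of the Unknown clusters, while Scn11a at -0.65 was above it and in 87.9% of cells against 34.6% for Scn10a in the authors' deposited table. In SST the level of Scn10a (1.12) exceeded that of Scn11a (0.56), and in Peptidergic.488p it did not (0.71 against 0.93).

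**Figure D1:**
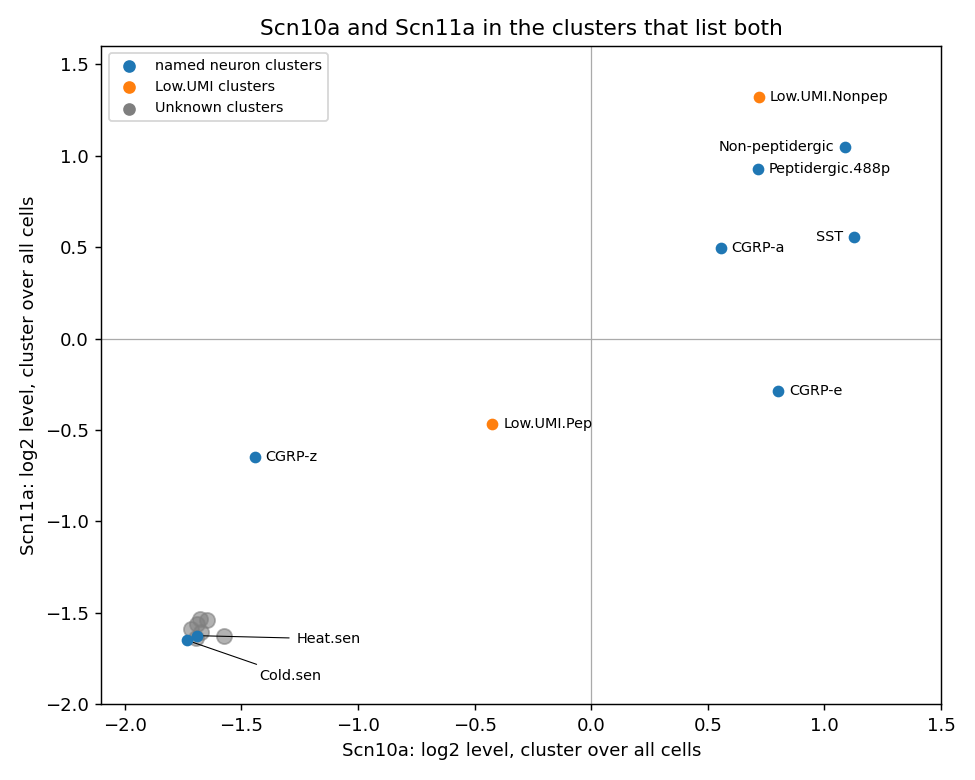
The log2 level of Scn11a (vertical axis) is plotted against that of Scn10a (horizontal axis), each as a cluster over all cells, with 1 point for each of the 17 clusters that list both genes. Blue points are named neuron clusters, orange points Low.UMI clusters and grey points Unknown clusters; Cold.sen and Heat.sen lie among the grey points at the lower left, and CGRP-e (0.80, -0.29) and CGRP-z (-1.44, -0.65) lie off the diagonal.

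Scn9a, the gene of Nav1.7, which amplifies small depolarisations in sensory neurons, differed less between the neuron clusters listed for it. In the authors' deposited table it was detected in 100% of the cells of CGRP-e, CGRP-n, CGRP-z, Cold.sen, Heat.sen, LTMR and Non-peptidergic, and in 95.4% of SST cells. The 7 Unknown clusters had it in 2.1 to 5.8% of cells in the authors' deposited table. The levels ran from 0.24 in CGRP-e through 0.35 in SST, 0.41 in CGRP-n, 0.49 in Non-peptidergic, 0.50 in CGRP-z, 0.52 in Cold.sen and 0.61 in Heat.sen to 0.79 in LTMR. Of all listed clusters, Low.UMI.LTMR had the highest Scn9a level, 1.33, and the Unknown clusters lay between -2.13 and -1.99. In plain means, LTMR had 1.73 to 1.95 times and CGRP-e 1.18 to 1.23 times the Scn9a of all cells, and the Unknown clusters at most 0.251 times.

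Against the other listed neurons alone, the differences in Scn9a were small. With the other 7 listed named neuron clusters as the comparison, the log2 level of Scn9a was 0.38 in LTMR and -0.27 in CGRP-e, and the other clusters lay between these values. The same comparison gave Scn10a -2.49 in Cold.sen, -2.33 in Heat.sen and -2.08 in CGRP-z, and 0.68 in SST and 0.61 in Non-peptidergic. For Scn11a, with 9 other neuron clusters, it gave -2.01 in Cold.sen, -1.89 in Heat.sen, 0.76 in Peptidergic.488p and 0.99 in Non-peptidergic. Scn9a was not listed for CGRP-a, Peptidergic.488p and Low.UMI.Pep, in which together 56.6% of cells had it (56.4 to 56.7% given the rounding), at a joint level of -0.06. The comparison of Scn9a thus leaves out CGRP-a and Peptidergic.488p. All 8 listed neuron clusters had log2 fold changes of 0.25 or more, the smallest size in the authors' deposited table. Their range can therefore be narrower than that over all 10 named neuron clusters.

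**Figure D2:**
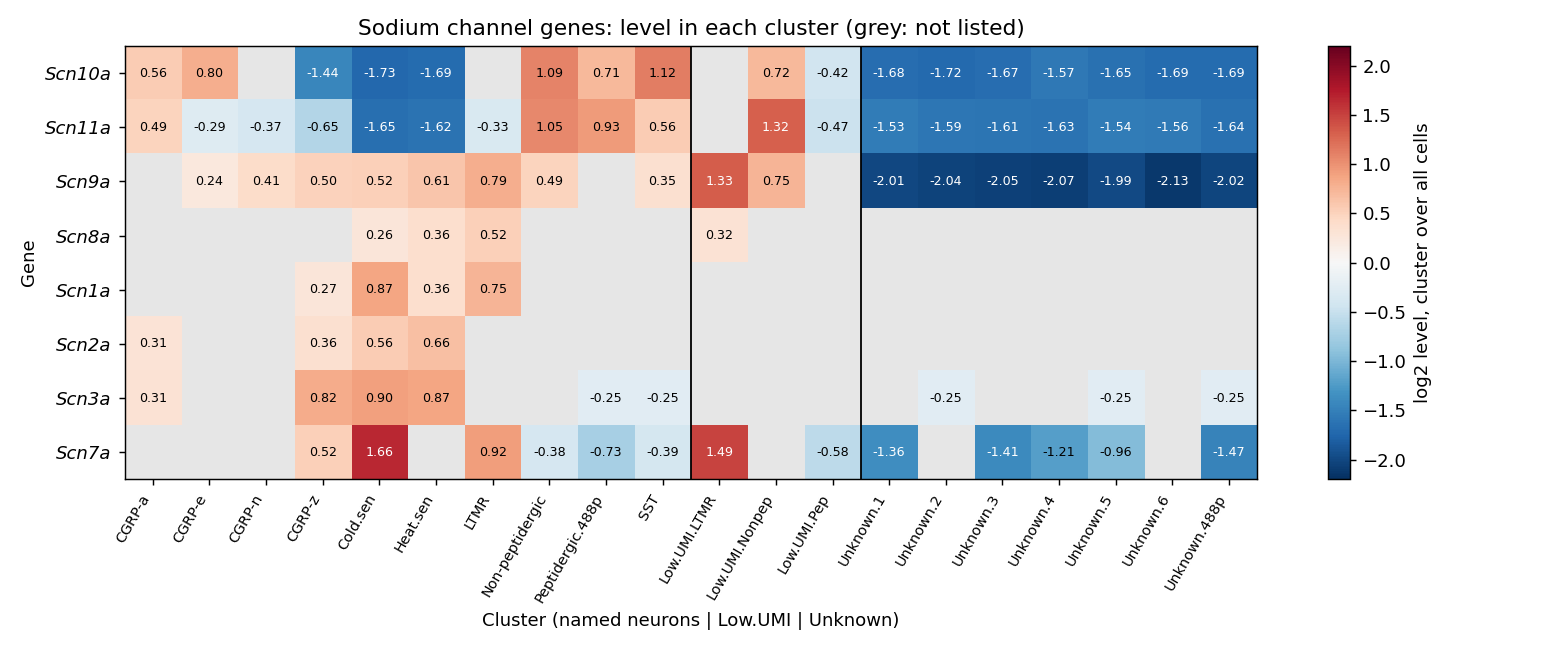
The log2 level of each sodium channel gene (rows) in each cluster (columns), as the cluster over all cells, with red above and blue below the mean of all cells and grey for pairs not listed; black lines divide named neurons, Low.UMI and Unknown clusters. Cold.sen, Heat.sen and CGRP-z are blue for Scn10a and Scn11a and red for Scn9a, Scn1a, Scn2a and Scn3a, and the Unknown clusters are blue for Scn9a, Scn10a and Scn11a.

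Scn1a, the gene of Nav1.1, which is known from fast-firing neurons and from mechanical pain fibres in mouse, was listed in 4 clusters. The authors' deposited table gives it in 98.7% of LTMR cells against 9.2% of other cells and in 86% of Cold.sen cells against 9.4%. It was in 66.3% of Heat.sen cells against 12.1% of other cells and in 59.8% of CGRP-z cells against 12.1% in the authors' deposited table. The 4 clusters held 10.9% of all cells and 72.8% of the cells with a Scn1a transcript. In the other 16 clusters together, 3.89% of cells had Scn1a (3.86 to 3.92% given the rounding), and these were 27.2% of the cells with the transcript. The 16 include neuron, Low.UMI and Unknown clusters, and how the cells with Scn1a were divided among them is not known.

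The level of Scn1a was 0.87 in Cold.sen and 0.75 in LTMR, and 0.36 in Heat.sen and 0.27 in CGRP-z. Cold.sen had the highest level and LTMR the highest share of cells. In plain means, Cold.sen had at least 1.83 times and LTMR at least 1.69 times the Scn1a of all cells. The upper ends, 11.6 and 9.77 times, are wide because no cluster with Scn1a near 0 is listed.

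Scn8a, the gene of Nav1.6, the main channel of the nodes of myelinated axons, was highest in LTMR. The authors' deposited table gives it in 97.4% of LTMR cells against 15.8% of other cells, with a log2 fold change of 0.55, the only one of 4 that reached 0.5. It was in 63.3% of Heat.sen and 55.5% of Cold.sen cells, against 18.4% and 17.3% of the other cells, in the authors' deposited table. The levels were 0.52 in LTMR, 0.36 in Heat.sen and 0.26 in Cold.sen. The 16 clusters not listed had Scn8a in 13.5% of their cells together, so that 62% of the cells with this transcript lay outside the listed clusters. The touch neuron genes Th and Tafa4 were in 94.2% and 100% of LTMR cells in the authors' deposited table. Of the A-fibre neuron genes, Ntrk3 had a log2 fold change of 1.27 there and Ntrk2 -0.88 in the authors' deposited table, and Nefh was not listed. Whether LTMR cells have myelinated axons was not tested.

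Scn3a and Scn2a, the genes of Nav1.3 and Nav1.2, which are known as channels of the embryonic and the central nervous system, were highest in the same 3 of their listed clusters. In the authors' deposited table Scn3a was in 89.8% of Heat.sen, 88.8% of CGRP-z and 88.4% of Cold.sen cells, and in 74% of CGRP-a cells. It was in 1.7% of Peptidergic.488p and 0.2% of SST cells in the authors' deposited table, and at 0 to 0.1% in the 3 Unknown clusters listed. SST thus had Scn3a about as rarely as these Unknown clusters, although Scn9a was in 95.4% of its cells.

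For Scn3a the scale of plain means is fixed by the data. No cell of Unknown.5 or Unknown.488p held the transcript at the printed precision, and the levels of these 2 clusters differed by 3.9e-06 on the log2 scale, so they mark the value of a mean of 0. With that value, mean Scn3a was 6.38 times that of all cells in Cold.sen, 6.18 times in Heat.sen, 5.80 times in CGRP-z and 2.51 times in CGRP-a. It was 0.00889 times in Peptidergic.488p and 0.000949 times in SST. In the 11 clusters not listed it was 0.592 times together, and 14.4% of their cells held the transcript.

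Scn2a was in 83.7% of Cold.sen, 82.7% of Heat.sen, 75.7% of CGRP-z and 74% of CGRP-a cells in the authors' deposited table, against 25.5 to 28.4% of the other cells. The levels were 0.66 in Heat.sen, 0.56 in Cold.sen, 0.36 in CGRP-z and 0.31 in CGRP-a. The 4 listed clusters held 14.4% of all cells and 38.6% of the cells with Scn2a. In the other 16 clusters together 20.9% of cells had it.

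Scn7a, the gene of the sodium sensor Nax, had the largest positive log2 fold change of the family as deposited, a scale that carries the added constant. On the log2 scale the authors' deposited table gives 1.81 for Cold.sen, 0.98 for LTMR and 0.53 for CGRP-z, with Scn7a detected in 99.7%, 100% and 99.1% of these cells. The mean in Cold.sen was 3.16 to 4.39 times that of all cells, and in LTMR 1.90 to 2.40 times. In plain means Scn7a was not first in Cold.sen, since Scn3a there was at 6.38 times. Non-peptidergic and SST had Scn7a in 99.3% and 92.4% of cells in the authors' deposited table, but at levels of -0.38 and -0.39. Peptidergic.488p had it in 40.3% of cells in the authors' deposited table, at a level of -0.73.

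Among the Unknown clusters Scn7a was not uniform. It was in 0.7% of Unknown.488p, 2.1% of Unknown.3, 4.1% of Unknown.4 and 4.2% of Unknown.1 cells, and in 14.2% of Unknown.5 cells, all in the authors' deposited table. Unknown.5, a cluster with the fibroblast collagen gene Col3a1 among its higher genes, had the highest level of these at -0.96, against -1.47 to -1.21 in the other 4. Scn7a was not listed for Unknown.2 and Unknown.6, although at least 38.9% of the cells outside any unlisted cluster held it. A pair missing at such a share had a log2 fold change under 0.25 in size or a p-value above 0.01, by the limits seen in the authors' deposited table.

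**Figure D3:**
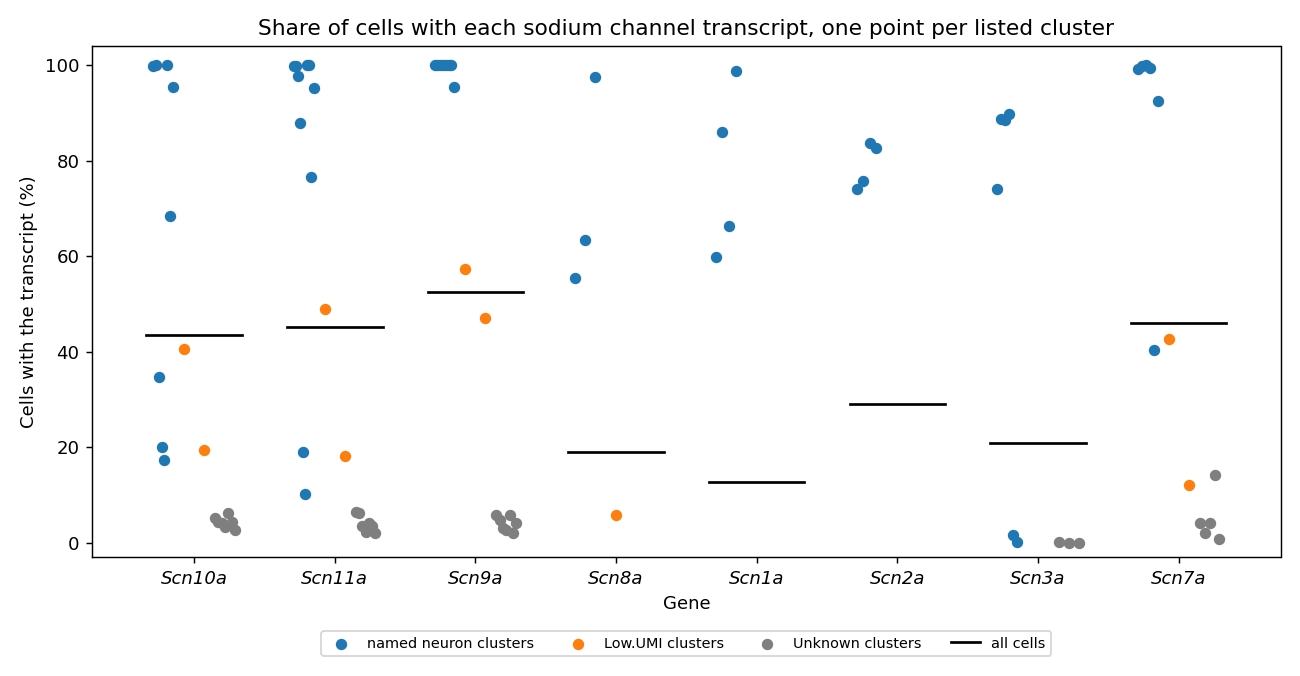
The share of cells in which each transcript was detected (vertical axis, in percent), with 1 point per listed cluster in blue for named neurons, orange for Low.UMI and grey for Unknown clusters, and a black line at the share over all cells. Scn9a is at 95.4% or above in all 8 listed neuron clusters, while Scn10a and Scn11a reach down to 17.3% and 10.2% and Scn3a to 0.2%.

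Counted by cluster, sodium channel genes were called higher most often in Cold.sen. There 5 of the 8 were higher (Scn1a, Scn2a, Scn3a, Scn7a and Scn9a), where 4.83% of all genes of the table were, and 2 were lower (Scn10a and Scn11a), where 4.07% of all genes were. LTMR had 4 of 8 higher (Scn1a, Scn7a, Scn8a and Scn9a; 4.83% of all genes) and 0 lower (4.74%). CGRP-z had 3 higher (4.82%) and 2 lower (1.89%), and Heat.sen 3 higher (5.14%) and 2 lower (2.98%), in each case with Scn10a and Scn11a as the lower ones. Non-peptidergic had 3 higher (3.99%), namely Scn9a, Scn10a and Scn11a, and 0 lower (4.85%). Scn10a and Scn11a were the 2 higher members in CGRP-a (4.88%), SST (5.16%) and Peptidergic.488p (4.01%). In CGRP-a 0 were lower (3.89%), in SST 0 (5.98%) and in Peptidergic.488p 1, Scn7a (8.25%). CGRP-e had 1 higher, Scn10a (3.75%), and 0 lower (2.94%), and CGRP-n had 0 higher (3.41%) and 0 lower (2.58%).

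In the Unknown clusters all calls of members were downward. Scn7a, Scn9a, Scn10a and Scn11a were lower in Unknown.1, Unknown.3, Unknown.4, Unknown.5 and Unknown.488p, where 15.2%, 13.8%, 12.6%, 11.7% and 19.1% of all genes were lower. In Unknown.2 (13.3%) and Unknown.6 (14.5%) it was these genes without Scn7a. No member was higher in Unknown.1, Unknown.2, Unknown.3, Unknown.4, Unknown.5, Unknown.6 or Unknown.488p, where 13.4%, 8.97%, 7.64%, 5.27%, 8.65%, 7.39% and 11% of all genes were higher. The listed members had a median log2 fold change of 0.57 in Cold.sen (8 members) and 0.80 in LTMR (5 members), beside 0.26 and 0.25 over all genes listed for these clusters. The order was the other way in CGRP-n, with 0.022 (2 members) beside 0.28, and in CGRP-e, with 0.25 (3 members) beside 0.27. In the other 6 named neuron clusters the members' median was above that of all listed genes, and in the 7 Unknown clusters and Low.UMI.Pep it was below. These medians leave out every member not listed. Over all pairs of gene and cluster, 5.88% were higher and 8.42% lower, and the counts per member were 7 higher and 7 lower of 20 clusters for Scn9a, 6 and 10 for Scn10a, 5 and 11 for Scn11a, 4 and 7 for Scn7a, 3 and 0 for Scn3a, 2 and 0 for Scn1a and for Scn2a, and 1 and 0 for Scn8a. A call of lower was out of reach for Scn3a in any cluster. With the added constant, Unknown.5 and Unknown.488p had log2 fold changes of only -0.26 at 0% of cells. For Scn1a, Scn2a and Scn8a the lowest possible value is not known, so their 0 lower was not read as a result.

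**Figure D4:**
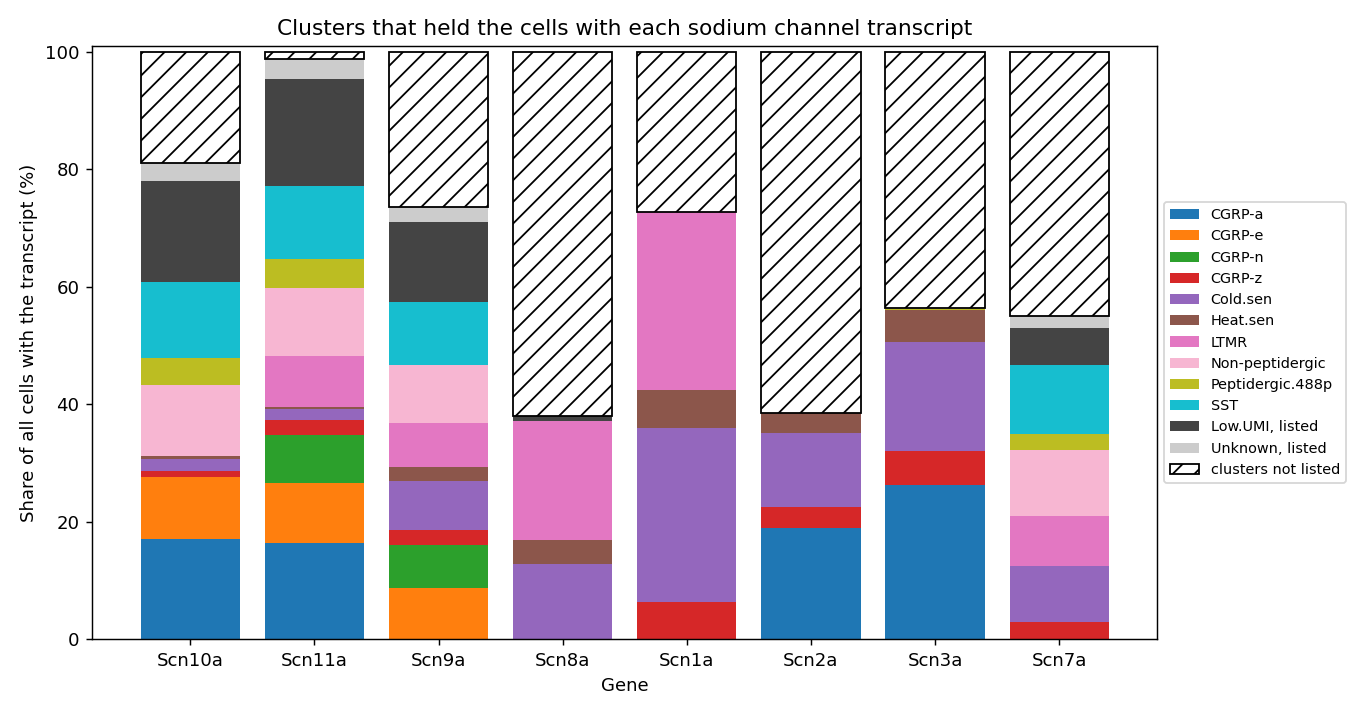
Each bar divides all cells in which a transcript was detected (100%) among the clusters that held them, with colours for the named neuron clusters, dark and light grey for the listed Low.UMI and Unknown clusters, and hatching for clusters in which the gene is not listed. LTMR and Cold.sen hold 30.4% and 29.5% of the cells with Scn1a, while listed Unknown clusters hold 3.41% of those with Scn11a and 2.66% of those with Scn9a.

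Detection and fold change did not always go together in the clusters named Low.UMI. Low.UMI.LTMR had log2 fold changes of 1.57 for Scn7a, 1.40 for Scn9a and 0.33 for Scn8a in the authors' deposited table, while Scn7a and Scn8a were in 42.6% and 5.7% of its cells, against 46.1% and 19.4% of other cells. In LTMR all of Scn7a, Scn9a and Scn8a were higher, whereas Scn8a in Low.UMI.LTMR stayed under the fold of 0.5. Low.UMI.Nonpep had Scn11a at 1.64, Scn9a at 0.89 and Scn10a at 0.85 in the authors' deposited table, the 3 members that were higher in Non-peptidergic too, in 48.9%, 47.1% and 40.6% of cells. Low.UMI.Pep had Scn7a at -0.66, Scn11a at -0.53 and Scn10a at -0.48 in the authors' deposited table. Low.UMI.Nonpep had 3 of 8 members higher (3.21% of all genes) and 0 lower (8.97%), Low.UMI.LTMR 2 higher (4.27%) and 0 lower (8.33%), and Low.UMI.Pep 0 higher (2.97%) and 2 lower (8.73%). For Low.UMI.LTMR, the only cluster in which Scn11a was not listed, a share of 19.4% (17.3 to 20.9% given the rounding) and a level of -0.20 followed from the other 19 clusters. The number of molecules per cell is not given, and the part of depth in these shares and levels was not tested.

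The genes most like Scn9a, Scn10a and Scn11a in log2 fold change were named from those listed in at least 15 of the same clusters. For Scn10a the first of 312 genes was Scn11a (Pearson r = 0.94 over 17 clusters), then Camk2a, a calcium-dependent kinase gene (0.91 over 15), and Map1lc3b, an autophagy gene (0.88 over 15). For Scn11a it was Cd24a (0.98 over 16), with Scn10a second of 656 (0.94) and then Cd55, which codes for a complement regulator (0.91 over 16). For Scn9a they were the neuronal RNA-binding protein gene Elavl3 (0.99 over 15), Prune2 (0.99 over 15) and the cytoskeletal gene Add2 (0.99 over 16). Scn9a itself ranked 90 of 656 for likeness to Scn11a (0.68 over 16 clusters). These correlations are descriptions, since the clusters share libraries, depth and the cells they are compared with. The 17 clusters for Scn10a and Scn11a include the 7 Unknown clusters. There the authors' deposited table gives log2 fold changes of -1.81 to -1.60 for Scn10a and -1.68 to -1.56 for Scn11a. Those for Scn9a include the same 7, at -2.15 to -2.02 in the authors' deposited table. The r over the neuron clusters alone was not computed.

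Of 19 other genes of the pathway, 16 occur in the table and the rest were not analysed here. They covered channel subunits, channel-binding factors, anchors and regulators. In the named neuron clusters 35 of 160 pairs were higher and 8 lower, where 3.41 to 5.16% of all genes were higher and 1.89 to 8.25% lower, by cluster. In the Unknown clusters 6 of 112 were higher and 51 lower, where 5.27 to 13.4% of all genes were higher and 11.7 to 19.1% lower, so the higher count was near that of all genes. The β subunits, which modulate gating and surface expression, followed different clusters. In the authors' deposited table Scn2b had log2 fold changes of 0.62 in Cold.sen and 0.57 in Heat.sen. Scn3b reached 0.5 in none of its 12 listed clusters, and Scn4b was listed for Unknown.3 alone (0.71 in the authors' deposited table).

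The intracellular Fgf factors bind the tail of the α subunits and shift their inactivation. In the authors' deposited table Fgf12 was at 2.08 and Fgf13 at -1.08 in LTMR, while in CGRP-z Fgf13 was at 1.00 and Fgf12 was not listed. Ank3, which codes for ankyrin G, the anchor of sodium channels at the axon initial segment, reached 1.53 in SST, 1.36 in Non-peptidergic and 1.02 in Cold.sen by the authors' deposited table. Nedd4l, a ubiquitin ligase that removes sodium channels from the surface, reached 1.58 in SST and 1.08 in LTMR in the authors' deposited table. S100a10, whose product carries Nav1.8 to the membrane, was at 0.97 in LTMR and -0.55 in Heat.sen in the authors' deposited table. The leak channel gene Nalcn was at 1.06 in Heat.sen and 1.00 in CGRP-z in the authors' deposited table.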

How the data were processed

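Single-cell RNA sequencing of sorted mouse dorsal root ganglion cells was available as 1 table of markers for 20 clusters, with 56694 pairs of gene and cluster. Its columns, per the file headers, are the authors' p-value with an adjusted one, the deposited log2 fold change (cluster over all remaining cells, averaged), and the deposited fraction of cells showing the gene, both inside and outside the cluster. Fractions are printed as percentages. Seurat is named in the submitters' processing notes. The sources used here do not give the aligner, build, annotation, cell filters, normalization or how doublets were treated. In the file no p-value exceeds 0.01, no log2 fold change is under 0.25 in size, and the larger fraction is at least 10%, so a missing pair was not read as absence. No count of cells or molecules is given, so the depth is unknown and no interval was attached.

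Cluster shares of all cells were solved by least squares over 6742 genes (residual 0.0274 percentage points), since a gene's overall fraction is the same whichever cluster it is computed from. With these shares each log2 fold change became a level over all cells, and in the 34 genes listed for all clusters the weighted levels summed to between 0.999989 and 1.00014. Fractions of unlisted clusters are the remainder, with worst-case bounds from rounding. Ranges of plain means take the added constant as equal in cluster and other cells. The method was tested on simulated data. Python 3.11.15, numpy 2.4.6, pandas 2.3.3 and matplotlib 3.10.9 were used.

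Deposited p-values take cells as units and served only in an alternative. Background percentages are over all 9229 genes. The members, gene lists and the rule for likeness (the 3 genes of largest Pearson r over at least 15 shared clusters, leaving out predicted genes) were chosen with earlier results of these data known. Genes named are the members, examples from the list of 19 pathway genes, these likeness genes, and markers that check the cluster names. Some genes of these lists enter the counts and are not reported here by name.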

Additional observations from a re-analysis of the deposited data

How the results depend on the processing

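No paired analysis was possible because the table's columns carry no sample. Over all 8 genes, 30 of 160 pairs were higher and 35 lower, where 5.88% and 8.42% of all pairs of gene and cluster were. With 1 as the smallest log2 fold change the higher pairs were 7, and the lower count stayed within 1.5 times. A fold change of at least 0.25, the deposited adjusted p under 0.05, the same direction in the share of cells and leaving out the Low.UMI clusters left both totals within 1.5 times. By member, 9 of 16 counts moved by more at a fold of at least 1 and 4 of 16 at 0.25. In the named neuron clusters, for genes listed in at least 5 of them, 20 pairs were higher and 7 lower. By cluster, 3.41 to 5.16% of all genes were higher there and 1.89 to 8.25% lower. Against the other listed neurons 9 pairs were higher and 14 lower, and the share of all genes in that comparison was not computed. That comparison leaves out by construction the Unknown and Low.UMI clusters and the neuron clusters not listed for a gene. The share of cells put another cluster first than the level for Scn1a (LTMR, 98.7%), Scn2a (Cold.sen, 83.7%), Scn3a (Heat.sen, 89.8%), Scn7a (LTMR, 100%), Scn9a (7 neuron clusters, 100%), Scn10a (CGRP-e and Non-peptidergic, 100%) and Scn11a (LTMR and Non-peptidergic, 100%), and not for Scn8a; the cause was not tested. By fold change, from which the level is computed, the first cluster was the same for all 8. The ratio of plain means for Scn3a (6.38), chosen after seeing the data, keeps the order of the levels by construction and is no separate check. With the share of cells as the measure of likeness, 2 of 3 genes were kept for Scn9a, 1 for Scn10a and 0 for Scn11a. Cluster shares solved at 20 percentage points put 40.8% of cells in the named neuron clusters again. Shares of cells depend on a depth that is unknown here.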
